A study of Mus musculus with 25 samples.

Results

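The piCLIP libraries of SRSF7 were made from the monosomal and polysomal fractions of P19 cells, a mouse embryonal carcinoma line. They were chosen by their titles and numbered 6 of the 25 libraries of the series: 4 immunoprecipitates (mono_IP 1 and 2, poly_IP 1 and 2) and 2 controls (mono_IgG 1 and poly_IgG 1). SRSF7 is a serine/arginine-rich protein that binds pre-mRNA and mRNA, takes part in splicing, and moves between nucleus and cytoplasm. In iCLIP, UV light links a protein to the RNA it touches, the complex is immunoprecipitated, and reverse transcription stops beside the linked nucleotide, so that each cDNA marks an event at nucleotide resolution. An IgG control goes through the same steps with an antibody that has no target, and its reads show what is carried through washing, gel and PCR without one. The labels give the genotype SRSF7-GFP OE, and the protocol irradiation at 254 nm for all 6, so immunoprecipitates and controls share the tagged protein, and the promoter that drives it is not given in the sources used here. The controls carry IgG in their titles and a control IgG condition in the file headers, while their antibody label reads anti-EGFP as for the immunoprecipitates, so which antibody was used is not settled. Each fraction has 1 control library, and a control therefore has no replicate within its fraction. Whole-cell iCLIP of GFP-tagged WT SRSF7 (3 libraries) and 5 whole-cell controls without UV or without antibody serve below only as outside measurements. The choice of libraries used none of them. By their titles, the controls without UV were of SRSF7, of the SRSF7 variants mutZn and D27aa, and of SRSF7-GFP OE. The control without antibody was of SRSF7-GFP OE. Ranges given below for whole-cell libraries without UV therefore mix these genotypes.

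The monosomal immunoprecipitates held 52553 and 32015 events and their control 1153, which is 2.73% of the mean of the pair. The polysomal immunoprecipitates held 23145 and 18357 events and their control 11177, or 53.9% of that mean. Scaled to 1000000 placed events (CPM), 1 event was worth 19.1, 31.3, 43.3 and 54.6 CPM in mono_IP 1, mono_IP 2, poly_IP 1 and poly_IP 2, but 867 CPM in mono_IgG and 89.6 CPM in poly_IgG. Against a control with no event, folds below are given over a floor of 3 events, which is 2602 CPM in mono_IgG and 269 CPM in poly_IgG. The exact two-sided 95% Poisson limit of 0 events is higher, at 3199 and 331 CPM, and folds over it would be smaller. This depth limits every statement on what is above control in the monosomal fraction. All 6 libraries share 1 library identifier in the file headers, which was taken here as 1 sequencing run. The 4-base barcodes of mono_IgG and mono_IP 2 differ at 1 base, and those of all other pairs at 2 to 4. The part of index misreading in any overlap was not tested.

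No window passed a test with replicates, and on simulated data that test recovered few of the changes put in. The genome was divided into windows of 5000 nt per strand, and the 906 windows with at least 15 events over the 6 libraries were compared. By the limma-moderated quasi-likelihood test with Benjamini-Hochberg adjustment, 0 windows (0%) passed an adjusted p of 0.05 in both fractions together, and the lowest adjusted p was 0.303. At an unadjusted p under 0.05 there were 63 windows (6.95%), of which 28 were higher and 35 lower in IP, and limma-voom also gave 0 adjusted calls, with 4 higher and 76 lower at that unadjusted level. Within the monosomal fraction, the polysomal fraction and for the difference between fractions the number of adjusted calls was again 0 (0% of 906 in each). The unadjusted counts there were 25 (2.76%), 72 (7.95%) and 29 (3.2%), and limma-voom gave 0 adjusted calls and 42, 56 and 9 unadjusted ones.

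The filter on events is passed mostly through the deeper IP libraries, so the numbers of windows without overlap are a description only. In 306 of the 906 windows (33.8%) all 4 IP libraries lay above both controls, and in 26 (2.87%) all 4 lay below. Of the 306, 221 had no event in either control and 304 had none in mono_IgG at these control depths. For a narrower comparison, each value was then given its exact 95% Poisson interval, which covers counting error only. This rule and the windows it names were chosen after the values had been seen. Both polysomal immunoprecipitates lay above poly_IgG beyond these intervals in 7 windows (0.773% of 906) and below it in 62 (6.84%). In the monosomal fraction, 1 window (0.11%) lay above mono_IgG and 30 (3.31%) below. Counts of windows depended on a single library and on the scaling: without poly_IP 1, and likewise without poly_IP 2, 39 windows lay above poly_IgG, and without poly_IP 2 106 lay below it. The monosomal count above control was 4 without mono_IP 1, 5 without mono_IP 2 and 15 with TMM scaling, and with each position counted once only 2 of the 62 polysomal windows remained below control. Among the 138 windows with events in both controls, IP was the higher group in 17.4%, against 48.5% with TMM scaling and 82.6% with no scaling, and the median log2 fold change was -1.31, -0.09 and 1.25.

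**Figure D1:**
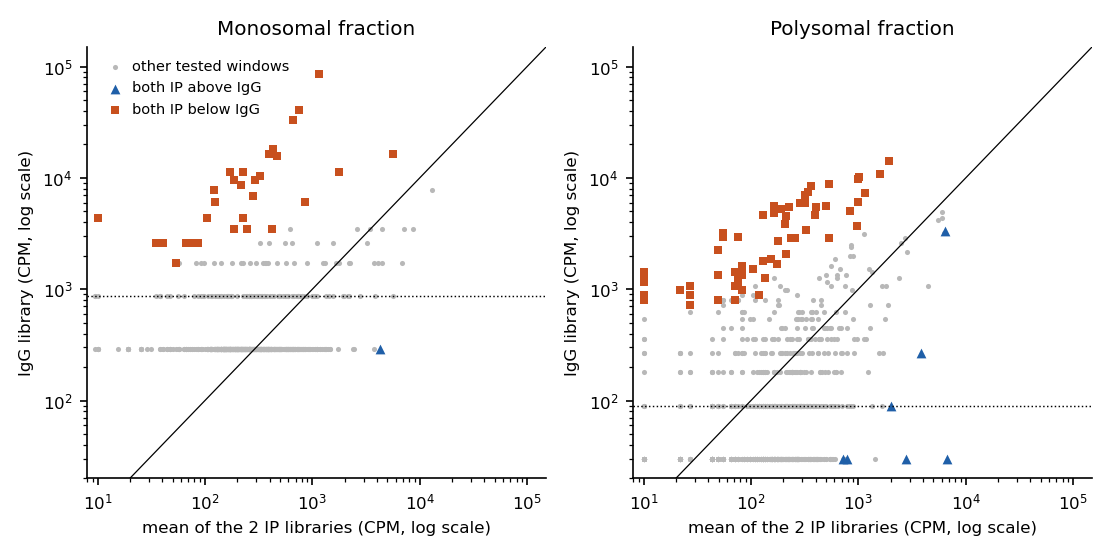
Each point is a 5000 nt window in the monosomal (left) or polysomal (right) fraction, with the mean CPM of the 2 IP libraries on the x axis and the CPM of the IgG library on the y axis, both on log scales. Windows at 0 events are drawn at the left edge or below the dotted line, which marks 1 IgG event. The 7 polysomal windows and 1 monosomal window above control (triangles) lie right of the diagonal, and the 62 and 30 windows below control (squares) lie far left of it.

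Of the 7 polysomal windows, the one with the highest polysomal IP level was chr17:80600001-80605000 on the minus strand (mm9). It held 1044 and 195 events in mono_IP 1 and 2 and 9 in mono_IgG, and 219 and 72 events in poly_IP 1 and 2 and 0 in poly_IgG. The polysomal immunoprecipitates averaged 6709 ± 3930 CPM (SD, n = 2), at least 24.95-fold above the floor of 3 poly_IgG events. In the monosomal fraction mono_IP 1 lay above the control and mono_IP 2 below it, at 19926 and 6113 CPM in IP and 7806 CPM in IgG, and the ratio of the summed IP to IgG was 1.88 (0.989 to 4.13). Over both fractions the log2 fold change of IP over IgG was 2.65 ± 2.07 (SE, adjusted p = 0.564), and 0.74 without poly_IgG. The events lay on 690 nucleotides, and the strongest of them held 2.73% of all. Whole-cell iCLIP gave 11225 ± 3589 CPM there (n = 3). The whole-cell libraries without UV gave 6137 to 25281 CPM, the highest value being 45 events of the SRSF7-GFP OE library. Of the 14 libraries compared, poly_IgG was the only one without an event there.

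A pair of neighbouring windows on the minus strand of chromosome 19 was spread in the same way. At chr19:5795001-5800000 the counts were 564 and 109 in mono_IP and 4 in mono_IgG, and 107 and 56 in poly_IP and 3 in poly_IgG. Summed over the 2 polysomal immunoprecipitates, the ratio to poly_IgG was 14.6 (exact 95% counting interval 4.92 to 71.7). At chr19:5800001-5805000 the counts were 267 and 124 in mono_IP and 4 in mono_IgG, and 51 and 33 in poly_IP and 1 in poly_IgG, a polysomal ratio of 22.6 (3.95 to 905). In the monosomal fraction the ratios were 2.30 (0.895 to 8.47) and 1.34 (0.518 to 4.93), whose intervals include 1. Events covered 521 and 312 nucleotides of the windows, none with more than 2.02% of them, and whole-cell iCLIP held 7642 ± 1153 and 4028 ± 1717 CPM. The whole-cell libraries without UV held 6702 to 10204 CPM in the first window and 1685 to 5731 CPM in the second. There the lowest value was 3 events of the SRSF7-GFP OE library. The adjusted p-values were 0.533 and 0.551.

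Another spread window above the polysomal control was nearly empty in whole-cell iCLIP. The minus-strand window chr5:89630001-89635000 held 426 and 103 events in mono_IP and 1 in mono_IgG, and 102 and 21 in poly_IP and 0 in poly_IgG. The polysomal level of 2783 ± 2314 CPM was at least 10.3-fold above the floor of poly_IgG, and the monosomal ratio was 7.24 (1.29 to 286). It was the only window of the 7 with intervals of the summed counts above control in both fractions, though not for each monosomal library. Its log2 fold change was 4.72 ± 2.32 (SE, adjusted p = 0.528), and 2.71 without poly_IgG. Its 221 nucleotides spread over about 1000 nt with 5.20 ± 1.84 CPM in whole-cell iCLIP. The window at chr7:14345001-14350000 (minus) was the weakest of the spread ones, with 58 and 31 events in mono_IP and 1 in mono_IgG, and 14 and 15 in poly_IP and 0 in poly_IgG, at least 2.65-fold above the floor. Whole-cell iCLIP held 25.4 ± 21.1 CPM there.

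Both remaining polysomal windows were compact clusters. At chr16:33045001-33050000 on the plus strand all libraries held signal, with 335 and 354 events in mono_IP and 4 in mono_IgG, and 150 and 114 in poly_IP and 37 in poly_IgG. The 4 immunoprecipitates were close to each other, at 6394, 11097, 6498 and 6223 CPM, and the controls lay at 3469 and 3316 CPM. The groups did not overlap, the log2 fold change was 1.12 ± 1.61 (SE, adjusted p = 0.717), and it turned to -0.52 with each position counted once. The central 80% of its events fell in 36 nt, and whole-cell iCLIP held 3.73 ± 4.59 CPM. At chr8:53420001-53425000 (minus) there were 42 and 68 events in mono_IP and 16 and 16 in poly_IP, and neither control had an event. The same nucleotide was the strongest in all 4 immunoprecipitates, with 36 of the 142 events, and the polysomal bound was at least 2.91-fold.

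Control and immunoprecipitate changed places between fractions in the window above control in the monosomal fraction, chr2:71175001-71180000 (plus). It held 230 and 130 events in mono_IP and 0 in mono_IgG, but 6 and 26 in poly_IP and 56 in poly_IgG. Monosomal IP was at least 1.63-fold above the floor, while poly_IgG exceeded the summed polysomal IP by a ratio of 6.49 (4.13 to 10.4). The test of the difference between fractions did not call it (adjusted p = 1).

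**Figure D2:**
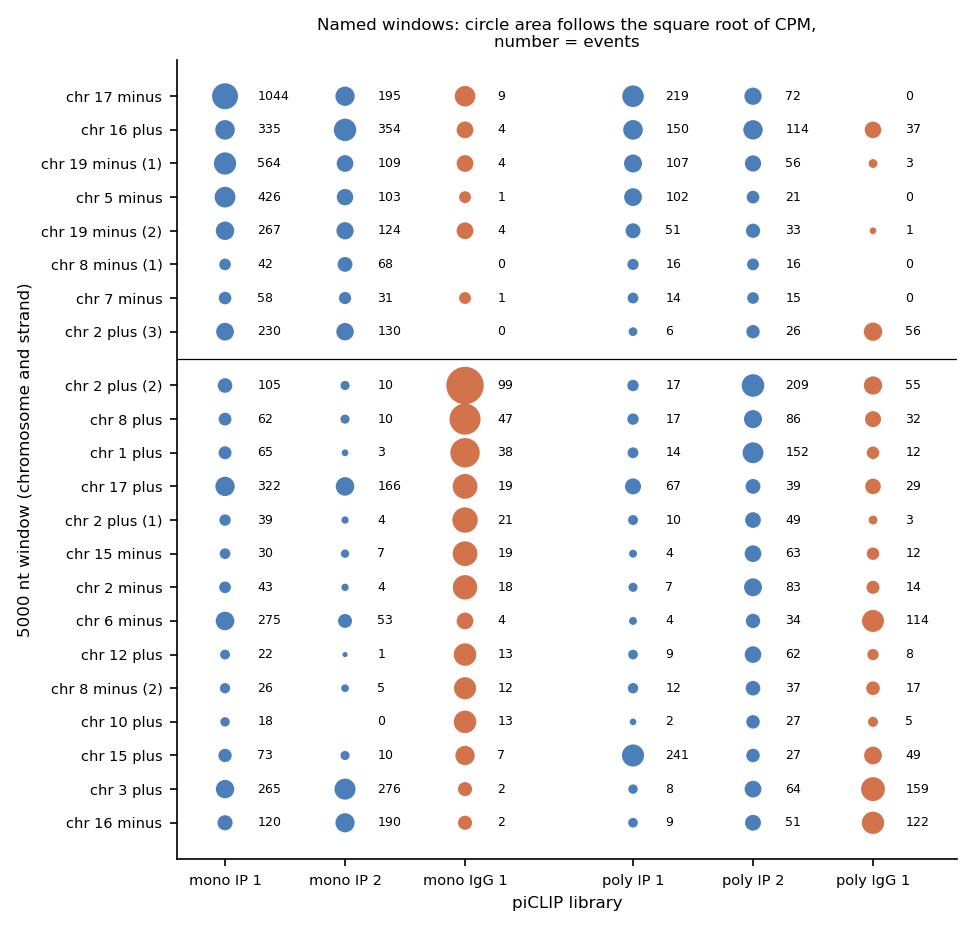
Each row is a named 5000 nt window (chromosome and strand, numbered by position where several share them) and each column a piCLIP library, IP in blue and IgG in orange. The printed number is the number of events, and circle area follows the square root of CPM. Above the line are the 8 windows beyond counting intervals above control, and below it the windows shared with or strongest in IgG, where mono_IgG has its largest circles and poly_IP 2 is usually the highest IP library.

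In 30 windows each control held at least 3 events, and these are called shared. They include 2 of the 7 windows above the polysomal control, chr16:33045001-33050000 and chr19:5795001-5800000. Of the 30, 24 had events in all 4 immunoprecipitates. The 30 carried 3.25 to 7.59% of the events of the IP libraries, against 34.7% of the mono_IgG events and 5.91% of the poly_IgG events. The choice asked for 3 events in mono_IgG, worth 2602 CPM, and for none in IP, so the mono_IgG share is partly set by it. Most were a single spike: in 20 of the 30 (66.7%) the central 80% of the events fell within 3 nt, against 89 of all 906 windows (9.82%). Whole-cell iCLIP had no event in 14 of the 30 and under 5 CPM in 24 (80%), against 74 and 273 (30.1%) of the 906. The 12 with the highest mean IgG level were named by rule, and 2 of them were no spikes.

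The strongest spike lay at position 40900319 on the plus strand of chromosome 2, in window chr2:40900001-40905000. That nucleotide alone held 99 and 9 events in mono_IP 1 and 2 and 91 in mono_IgG, and 16 and 142 in poly_IP 1 and 2 and 52 in poly_IgG. It was the highest nucleotide of mono_IP 1, poly_IP 2 and both controls. The window as a whole held 2004 and 313 CPM in mono_IP, against 85863 CPM in mono_IgG, a ratio of IgG to the summed IP of 62.9 (47.6 to 83.1). In the polysomal fraction IP and IgG were alike within counting error (ratio of IP to IgG 1.11, interval 0.822 to 1.52), although poly_IP 2 at 11409 CPM was far above poly_IP 1 at 736 CPM. None of the 3 whole-cell iCLIP libraries and none of the 5 whole-cell controls had an event there. Absence says little in the SRSF7-GFP OE controls without UV and without antibody. They held 1789 and 3080 events in all, so 1 event was worth 562 and 326 CPM. The window did not pass the test (log2 fold change -4.31 ± 1.66, adjusted p = 0.528). The direction turned without mono_IgG (0.30) and without scaling (0.03).

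Other spikes were again unevenly spread over the libraries. In chr8:72895001-72900000 (plus) 99.2% of the events sat on 1 nucleotide, with 62 and 10 events in mono_IP and 47 in mono_IgG, and 17 and 86 in poly_IP and 32 in poly_IgG for the window. In chr1:109660001-109665000 (plus) the counts were 65 and 3 in mono_IP and 38 in mono_IgG, and 14 and 152 in poly_IP and 12 in poly_IgG. The windows chr2:28190001-28195000 (plus) and chr8:82000001-82005000 (minus) had every event of all 6 libraries on a single nucleotide. Spikes at chr15:83870001-83875000 (minus), chr2:90745001-90750000 (minus), chr12:63685001-63690000 (plus) and chr10:115090001-115095000 (plus) followed, with 69.6 to 99.3% of events on the top nucleotide. The ratio of mono_IgG to the summed monosomal IP was 28.0 to 62.9 in these 9 spikes and 6.17 in the tenth, at chr15:72735001-72740000. The naming rule chose windows by their IgG level, where a mono_IgG event weighs most, so these ratios are a description. In the 9 spikes poly_IP 2 had the highest CPM of the 4 immunoprecipitates, and in the tenth poly_IP 1 had. Without mono_IgG the fitted direction turned to higher in IP in 8 of the 10.

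Replicates of a group did not share these windows evenly. Among the 30 shared windows, poly_IP 2 was the highest immunoprecipitate in 14, poly_IP 1 in 6, mono_IP 1 in 6 and mono_IP 2 in 4. The 14 windows led by poly_IP 2 held 5.31% of its events and 0.481% of those of poly_IP 1, its replicate, against 27.9% of mono_IgG. The 6 led by poly_IP 1 held 3.66% of its events and 0.633% of those of poly_IP 2, against 2.25% of mono_IgG and 1.60% of poly_IgG. Grouping by the highest immunoprecipitate fixes that the leading library holds the larger share, so these shares are a description. The strongest nucleotide of poly_IP 1, named after its values were seen, was position 53241857 on the plus strand of chromosome 7 with 221 events. Its window, chr7:53240001-53245000, held 54 and 8 events in mono_IP and 3 in mono_IgG, and 231 and 49 in poly_IP and 36 in poly_IgG. Another example is chr15:72735001-72740000 (plus), with 73 and 10 events in mono_IP and 7 in mono_IgG, and 241 and 27 in poly_IP and 49 in poly_IgG. Outside libraries held signal in that window too. Without UV there were 156 (WT), 6 (mutZn), 24 (D27aa) and 2 (SRSF7-GFP OE) events, or 90.0 to 1753 CPM. The library without antibody held 1 event, and whole-cell iCLIP 24.9 ± 41.0 CPM (SD, n = 3). The spread of the IP group at the chromosome 2 spike (3616 ± 5245 CPM, SD, n = 4) was larger than its mean. The chi-square per degree of freedom between replicates was 5.89 for the monosomal and 10.7 for the polysomal pair, above the 1 of counting noise, so neither pair was counted as 1 library. For pairs of a monosomal and a polysomal immunoprecipitate it was 7.34 to 10.3. By this measure the polysomal replicates were no closer to each other than to the monosomal libraries, though the windows compared differed between pairs. Pairs with a control were not compared in this way.

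Of the 12 shared windows named, 1 was broad. At chr17:39980001-39985000 (plus) the counts were 322 and 166 in mono_IP and 19 in mono_IgG, and 67 and 39 in poly_IP and 29 in poly_IgG. In CPM, mono_IgG was above the summed monosomal IP, by a ratio of 2.85 (1.70 to 4.49), and the polysomal ratio of IP to IgG was 0.985 (0.648 to 1.54). Whole-cell iCLIP held 6448 ± 1748 CPM. The whole-cell libraries without UV held 6527 to 12921 CPM, the highest value being 23 events of the SRSF7-GFP OE library. The one without antibody held 65494 CPM (201 events), so every library compared held signal at this locus.

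Loci strongest in poly_IgG were compact clusters of another kind. The 3 windows with most poly_IgG events were chr3:85600001-85605000 (plus), chr16:13365001-13370000 (minus) and chr6:128745001-128750000 (minus). The first held 265 and 276 events in mono_IP and 2 in mono_IgG, and 8 and 64 in poly_IP and 159 in poly_IgG. The second held 120 and 190 in mono_IP and 2 in mono_IgG, and 9 and 51 in poly_IP and 122 in poly_IgG. In the third the counts were 275 and 53 in mono_IP and 4 in mono_IgG, and 4 and 34 in poly_IP and 114 in poly_IgG. Since the 3 were chosen by their poly_IgG events, the ratios of poly_IgG to the summed polysomal IP, 8.19, 7.54 and 11.1, are a description. The adjusted p-values of the polysomal contrast were each 0.593.

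Within these clusters IP and IgG did not always use the same nucleotides. In the chromosome 3 window the strongest IP nucleotide had 76 IP events, of which 33 and 37 were from mono_IP 1 and 2, and 0 IgG events, and the strongest IgG nucleotide, 12 nt downstream, had 20 IP and 40 IgG events. In the chromosome 16 window (minus) the IgG maximum lay 19 nt downstream of the IP maximum, with 10 IP and 31 IgG events, and the IP maximum of 47 events, of which 17 and 29 were from mono_IP 1 and 2, had no IgG event. The strongest nucleotides of poly_IP 1 and poly_IP 2 lay 22 and 20 nt downstream there, with 1 and 4 events, beside the poly_IgG maximum. The chromosome 3 window differed in this. Its IP maximum was also the strongest nucleotide of poly_IP 2, with 5 events, and that of poly_IP 1, with 2 events, lay 7 nt upstream. In both windows nearly all IgG events were polysomal, so the shifts between the summed maxima set mostly monosomal IP against polysomal IgG. In the chromosome 6 window both maxima fell on the same nucleotide, with 46 IP events, of which 44 were from mono_IP 1, and 31 IgG events. At the chromosome 2 spike, by contrast, the 266 IP and 143 IgG events of the maxima coincided. Of the 62 windows in which poly_IgG lay above both polysomal immunoprecipitates, 44 were clusters of 4 to 100 nt and 14 were spikes of 3 nt or less, while 23 of the 30 in which mono_IgG did so were spikes.

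**Figure D3:**
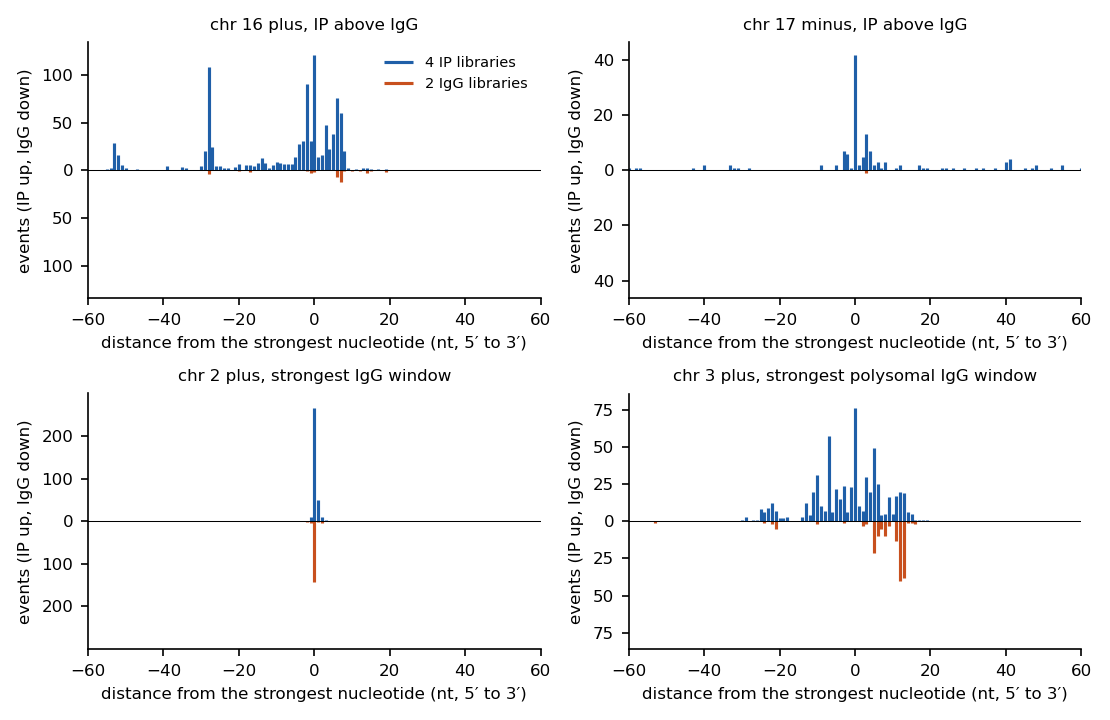
Events per nucleotide within 60 nt of the strongest nucleotide of 4 windows, summed over the 4 IP libraries (up, blue) and the 2 IgG libraries (down, orange), against the distance in nt along the strand. The chromosome 2 window is a single spike in IP and IgG, the chromosome 3 window a cluster in which the mostly polysomal IgG events peak 12 nt downstream of the mostly monosomal IP events, and the chromosome 17 window an IP maximum of 42 events with scattered IP events and hardly any IgG event around it.

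Over whole libraries, the immunoprecipitates had fewer of their events on repeated nucleotides, and more in windows of whole-cell iCLIP, than the controls. Nucleotides with 10 or more events held 6.76, 4.68, 6.29 and 7.86% of the IP events in mono_IP 1, mono_IP 2, poly_IP 1 and poly_IP 2, against 25.9% in mono_IgG and 17.2% in poly_IgG. The groups did not overlap (6.40 ± 1.32% in IP, SD, n = 4, and 21.6% in IgG, mean of 2), and the same held for events per nucleotide, at 1.25 to 1.48 in IP and 1.60 and 1.68 in IgG. Windows with no event in the 3 whole-cell libraries took 11.003, 17.2, 18.4 and 23.9% of the IP events, against 36.0% in mono_IgG and 27.3% in poly_IgG. Windows with 11 or more whole-cell events took 74.0, 61.0, 67.7 and 56.5% of the IP events, against 44.0 and 49.2% in the controls. Each of these differences had a two-sided exact permutation p of 0.133, which is the smallest that 4 against 2 libraries allow, and an adjusted p of 0.2 over the 6 measures computed. The share of plus-strand events (exact permutation p = 0.267) and the share in the 100 strongest whole-cell windows (p = 0.8) overlapped between IP and IgG.

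The separation did not hold when each nucleotide was counted once. The share in windows without whole-cell events was then 12.7 to 26.8% in IP, against 23.0% in mono_IgG and 35.5% in poly_IgG, and the groups overlapped. The exact permutation p was then 0.267.

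**Figure D4:**
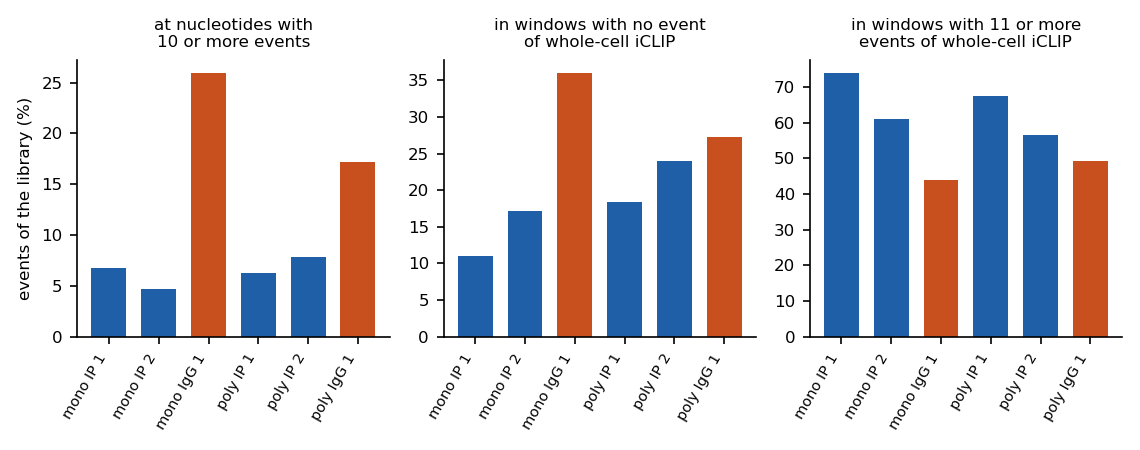
Bars give the percent of events of each piCLIP library (IP blue, IgG orange) at nucleotides with 10 or more events, in windows with no whole-cell iCLIP event and in windows with 11 or more. Both controls lie above all 4 IP libraries in the first 2 panels and below them in the last.

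Many nucleotides of the controls were also nucleotides of the immunoprecipitates. Of the 687 positions of mono_IgG, 33.2% (exact 95% binomial interval 29.7 to 36.8%) were also positions of at least 1 immunoprecipitate, against 0.946% when the positions were moved by 100 nt. For the 6955 positions of poly_IgG the shares were 17.9% (17.02 to 18.8%) and 0.158%. Set beside the sharing among immunoprecipitates, 11.5% of mono_IP 2 positions and 25.6% of mono_IgG positions were in mono_IP 1. In poly_IP 2 lay 2.84% of poly_IP 1 positions and 7.49% of poly_IgG positions, but in poly_IP 1 the shares were close, at 4.25% of poly_IP 2 and 4.69% of poly_IgG positions. These shares were taken of unlike numbers of positions, 25150 in mono_IP 2 and 687 in mono_IgG. In the polysomal fraction they were 18428 and 12339 in IP and 6955 in IgG. The part of depth was not tested, so the shares do not rank controls against replicates. Positions with several events were shared more often: 56.0% of mono_IgG positions with 2 or more events were IP positions, and 28.5% of those with a single event. In poly_IgG these shares were 44.4 and 12.4%. All 12 mono_IgG positions and 100 of 104 poly_IgG positions with 10 or more events were IP positions.

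**Figure D5:**
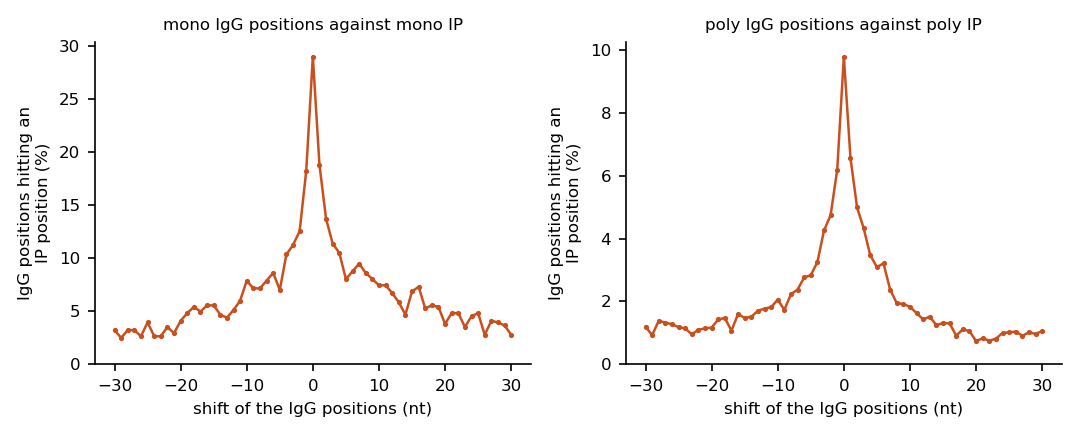
The y axis gives the percent of IgG positions that hit a position of either IP library of the same fraction when all IgG positions are shifted on the genome by the number of nt on the x axis. The share peaks at no shift, at 29.0% in the monosomal and 9.79% in the polysomal fraction, and falls to 18.8% and 6.57% at a shift of 1 nt.

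Peaks were compared last. The authors' list for the sum of the 4 immunoprecipitates held 20437 peak positions, that of mono_IgG 5 and that of poly_IgG 192. All 5 mono_IgG peaks were IP peaks, and 90 of the 192 poly_IgG peaks were (46.9%, exact 95% binomial interval 39.7 to 54.2%), which was 0.44% of the IP list. The 192 peaks lay in 91 windows, with 11 in 1 window and 40 in the 5 fullest. The interval takes peaks as independent and so is too narrow. The strongest spike, position 40900319 of chromosome 2, is not among the 5 mono_IgG peaks, and its window holds 0 IP peaks. The peak overlap therefore does not cover all shared windows described above. The best mono_IgG peak by the authors' score, at chr15:83873538 (minus), is one of the spikes above, with 30 and 7 events in mono_IP and 19 in mono_IgG, and 4 and 62 in poly_IP and 12 in poly_IgG. None of the 5 mono_IgG peaks and 7 of the 192 poly_IgG peaks (3.65%) were peaks of a whole-cell library without UV. Of the 20437 IP peaks, 3.17% were peaks of the WT list without UV, 1.62% of the mutZn list and 0.582% of the D27aa list. The small share is therefore no particular trait of the control peaks. Seen from the IP list, 819 peak positions (4.01%) held an event of a control, but 61 of the 100 peaks with the highest score did. A whole-cell iCLIP event was held by 5608 (27.4%). The controls had 1153 and 11177 events and the whole-cell libraries 221746 to 3952779 each, so the shares for controls and whole-cell iCLIP are not comparable. Per the file headers the IgG lists were called on 1 library each and the IP list on the sum of 4, so their lengths are not comparable.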

How the data were processed

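The deposited library files give 1 signed score per crosslinked nucleotide on mm9, which per the file headers is the number of cDNAs, with the sign marking the strand. Its absolute values (whole numbers) are called events. CASAVA 1.4 is named in the submitters' processing notes. Not given in the sources used here are alignment software and any collapsing of PCR copies. Per the file headers the authors' peak scores passed 100 permutations within 15 nt at a false discovery rate of 0.05 with Ensembl 59. Result types in the headers differ between piCLIP and whole-cell libraries, and whether that changes the values was not tested.

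Events on placed chromosomes were summed in windows of 5000 nt per strand and scaled to 1000000 events of the library (CPM). Coordinates are 1-based. No mm9 genome or annotation was used here, so no gene is assigned to a window and no sequence is shown. Windows with at least 15 events over the 6 libraries were tested with a negative binomial quasi-likelihood F test (fraction as covariate, library total as offset, moderation by squeezeVar from limma 3.58.1, run in R 4.3.3, Benjamini-Hochberg adjustment), written for this signed score in Python 3.11.15, since the test planned for plain count columns could not be used. It was tested on simulated data with known changes and recovered few of them, so windows that did not pass may still differ. Replicates are separate libraries of the titles, and whether they are separate cultures is stated only for the series as a whole (biological replicates), so p-values measure the spread between these libraries.

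Named windows are the 12 with the highest mean IgG CPM among those with at least 3 events in each control and the 3 with most events in each control. The rule also had parts for windows past the threshold, which named none. The windows above control by Poisson intervals were added after the values had been seen. Libraries, lists and rules were chosen with earlier results of these data known. Ratios and intervals cover counting error only. Alternatives for scaling, filter, window size, model, tool, position counting and single libraries were run.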

Additional observations from a re-analysis of the deposited data

Results flagged for a closer look

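Events on unplaced contigs, which no comparison used, made up a larger share of each immunoprecipitate than of the control of its fraction. Whether these differences exceed counting error was not tested. In monosomal IP they made up 0.332% of events on average (160 and 115 events, 0.304% and 0.359%), against 0 events in mono_IgG. The floor of 3 events used above is 0.26% of the mono_IgG events. The exact 95% Poisson limit of 0 events, 3199 CPM in mono_IgG, is higher and lies above the share of mono_IP 1. In polysomal IP events on unplaced contigs made up 0.237% on average (62 and 38 events, 0.268% and 0.207%), against 0.17% in poly_IgG (19 events).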

How the results depend on the processing

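No window passed the test in both fractions together under any alternative except 1: leaving out single libraries gave 0 to 1 windows, the 1 being chr5:35850001-35855000 (plus) without poly_IP 1. It held 0, 0, 1 and 0 IP events and 5 and 11 IgG events, so no IP event is left without that library (adjusted p = 1.93e-06 there, 0.303 with all libraries, by the limma-moderated test). Of the 21 named windows with an IgG event, 6 were fitted higher in IP, 18 without scaling and 6 to 11 when single libraries were left out (11 without mono_IgG). IgG positions within 1 nt of an IP position made up 44.8% (mono_IgG) and 23.7% (poly_IgG), and without the 20 windows with most IgG events the poly_IgG share was 15.9%. With peaks of score 5 or more, 2 of 2 mono_IgG and 26 of 36 poly_IgG peaks were IP peaks. Windows beyond counting intervals numbered, with each position counted once, 0 above and 16 below control in the monosomal and 4 above and 2 below in the polysomal fraction. With TMM scaling they were 15 above and 17 below, and 11 above and 52 below. With library totals taken without those 20 windows, 0 monosomal windows were above. Leaving out single libraries gave 4 to 5 above and 31 to 38 below in the monosomal fraction, and 39 above and 71 to 106 below in the polysomal fraction. The replicate number as a block gave 0 windows. Deviations of same-numbered libraries correlated at 0.384 over 906 windows in 2 pairs, too few to show that the numbers pair the samples. Of 346 fitted values of single named windows under the alternatives, 27 had the other direction, 12 of them without scaling, and 0 passed the test. Of 83 other alternative values, mostly counts, 62 stayed near the reported value and 21 moved. A sequencing-run block was not run, since all 6 libraries share 1 library identifier in the headers. The cause of these shifts was not tested. The 1153 events of mono_IgG limit every monosomal comparison.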
